A study of Mus musculus with 8 samples.

Results

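Blastocysts with knockdown (KD) of Smarca5, also called Snf2h, were compared with blastocysts of the control group labelled NC, by sequencing of polyadenylated RNA. The comparison rests on 4 of the 8 libraries of the series, 2 NC and 2 KD, each made from a pool of 20 mouse embryos, and the other 4 are morula libraries, which were not used. Its members are all genes of the blastocyst table whose mean over the 4 libraries was at least 10, which were 13651 of the 20348 genes listed. The series names embryonic days 3.75 and 4.25 as times of collection without tying either to a stage, and gives no strain. How the knockdown was delivered and what NC stands for are not given in the sources used here, so KD embryos differ from NC by the knockdown as labelled. Levels are normalized abundances, a scaled signal per gene deposited by the authors, and changes are differences of log2(level + 1), KD minus NC.

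SMARCA5 is the ATPase of most ISWI remodelling complexes, which slide nucleosomes along DNA, space them evenly and help factors such as CTCF to reach their sites. It pairs with accessory proteins such as BAZ1A, BAZ1B and BPTF, and mouse embryos that lack it die around implantation. A blastocyst holds an inner cell mass, which gives epiblast and primitive endoderm, and an outer trophectoderm, which pumps fluid into the cavity and later forms placenta.

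The libraries of the 2 groups were of like depth, with an estimated 13958541 to 23304895 reads each, the shallowest being NC replicate 1. Markers of the 3 blastocyst lineages were present in all of them. Pou5f1, the epiblast factor, had 21629.5 and 21609 in NC against 20001 and 19699 in KD, the trophectoderm factor Cdx2 had 10117 and 9653 in NC against 11024 and 11721 in KD, and the primitive endoderm factor Gata6 had 8901 and 10213 in NC against 8066 and 9102 in KD. Of 13 markers of cumulus, granulosa and stromal cells, 4 reached a mean of 10, and their summed levels were 192 and 388 in NC against 359 and 768 in KD. Of these, vimentin (Vim) was at 33.3 and 105 in NC against 218 and 391 in KD and the granulosa factor Foxl2 at 16.3 and 25.1 in NC against 63.9 and 42.6 in KD, both above NC in both KD libraries. The other 2 tested markers were lower in KD on average, with changes down to -0.76 and overlapping groups. The granulosa markers Fshr and Cyp19a1 and the stromal marker Dcn were not analysed here. Of 11 blood markers 4 reached a mean of 10, with sums of 120.5 and 381 in NC against 251 and 434 in KD, and the leukocyte marker Ptprc stayed under it. Haemoglobin and collagen RNA was higher in replicate 2 of both groups, with 0 and 57.5 in NC against 2.62 and 15.8 in KD for Hba-a1 and 13.6 and 92.4 in NC against 9.62 and 43.6 in KD for Col1a1. Of 7 markers of oviduct and uterine epithelium 4 were tested, with sums of 765 and 800.0 in NC against 758 and 942 in KD. The part of such cells in the results was not tested. Among Y-linked genes, which report on the sex of the pooled embryos, Ddx3y had 874 and 767 in NC against 877 and 1030.1 in KD and Eif2s3y had 978 and 655 in NC against 634 and 1062 in KD, with overlapping groups, and Xist was not analysed here.

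The targeted gene was lower in both KD libraries. Smarca5, a protein-coding gene (ENSMUSG00000031715) on chromosome 8, 80698507 to 80739497, minus strand of mm10, had 6999.6 and 8283 in NC against 906 and 855 in KD. It fell 8.68-fold, from 7641 ± 907 in NC to 880.2 ± 36.0 in KD (SD, n = 2). In limma with Benjamini-Hochberg adjustment log2 fold change was -3.11 with an SE of 0.12, at an adjusted p of 5.93e-04. Its RNA was lowered and still present in both KD pools. Its sister ATPase Smarca1 had a mean under 10 and was not tested. None of the 13 accessory subunits of ISWI complexes passed, with changes from -0.19 to 0.26. The largest was that of Bptf, the NURF subunit that reads histone H3 trimethylated at lysine 4, at 4359.9 and 4531 in NC against 5377 and 5302 in KD (log2 fold change 0.26, adjusted p = 0.188).

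In all, 12 genes passed an adjusted p of 0.05, 5 that rose and 7 that fell, Smarca5 included. They are 0.0879% of the genes tested, 0.0366% in the rising and 0.0513% in the falling direction. For each of the 12 both KD libraries lay on one side of both NC libraries, which held for 49.5% of all genes tested. Smarca5 stayed under 0.05 without any single library, Smyd1 stayed under it without NC replicate 2, and each of the other 10 genes missed it whenever 1 library was left out. Their direction could not turn in these fits, since the groups did not overlap. Each log2 change stayed between 91.2% and 109% of the value given here. With the variance not allowed to follow the level in limma, none of the 12 passed.

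**Figure D1:**
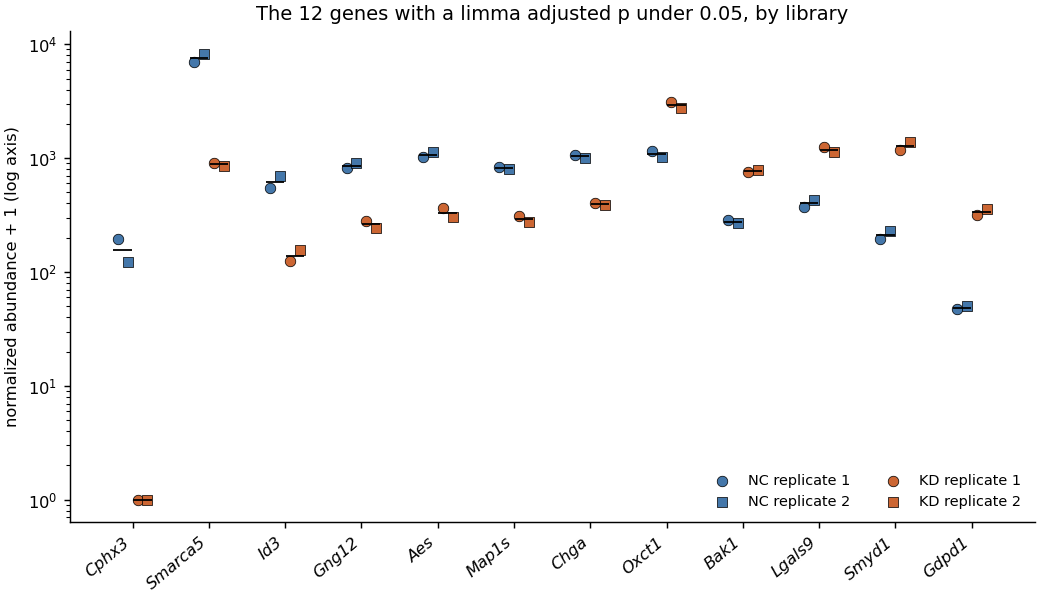
Normalized abundance + 1 on a log axis of the 12 genes past an adjusted p of 0.05, from the largest fall on the left to the largest rise on the right. Blue points are NC and orange points KD libraries, circles are replicate 1 and squares replicate 2, and black bars are the group means of the log values. Within each gene the 2 groups do not overlap, and Cphx3 is at 0 in both KD libraries.

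Among the genes that rose, Smyd1 (mm10 chromosome 6, 71213940 to 71322233, minus strand) encodes a histone methyltransferase known from heart and skeletal muscle. Its level was 192 and 228 in NC against 1172 and 1375 in KD, a 6.06-fold rise (log2 fold change 2.59, SE 0.17, adjusted p = 0.0142). None of the 4 other tested SMYD genes passed, and they went both ways, from -0.40 for Smyd3 to 0.41 for Smyd2. Gdpd1 (chromosome 11, 87033867 to 87074062, minus strand), a phosphodiesterase that acts on lysophospholipids, was at 46.0 and 49.4 in NC against 317 and 359 in KD (log2 fold change 2.80, SE 0.26, adjusted p = 0.0405). Oxct1 (chromosome 15, 4026383 to 4155344, plus strand) encodes the mitochondrial enzyme that activates ketone bodies for burning, and its level was 1144 and 1026 in NC against 3091 and 2755 in KD (log2 fold change 1.43, SE 0.12, adjusted p = 0.038). Lgals9 (chromosome 11, 78962974 to 78984946, minus strand) encodes galectin-9, a lectin that binds beta-galactosides on cell surfaces, and was at 375 and 431 in NC against 1244 and 1132 in KD (log2 fold change 1.56, SE 0.15, adjusted p = 0.0405). The other 7 galectins tested did not pass, and the widely expressed Lgals1 had 8964 and 8539 in NC against 9309.8 and 10412 in KD. Bak1 (chromosome 17, 27019810 to 27029009, minus strand) encodes a BCL2-family protein that opens the outer mitochondrial membrane in apoptosis. Its 2 NC libraries were at 286 and 267 and its KD libraries at 756 and 785 (log2 fold change 1.48, SE 0.16, adjusted p = 0.0479).

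Among the genes that fell, Id3 (chromosome 4, 136143497 to 136145755, plus strand) encodes an inhibitor of basic helix-loop-helix factors and is a classic target of BMP signalling. Its level was 541 and 702 in NC against 124 and 155 in KD (log2 fold change -2.15, SE 0.23, adjusted p = 0.0479). Gng12 (chromosome 6, 66896397 to 67021350, plus strand), a gamma subunit of heterotrimeric G proteins, was at 810.4 and 905 in NC against 279 and 244 in KD (log2 fold change -1.71, SE 0.17, adjusted p = 0.0405). Aes (chromosome 10, 81559488 to 81566362, plus strand), a short member of the Groucho family of corepressors, had 1015 and 1122 in NC against 364 and 303 in KD (log2 fold change -1.68, SE 0.16, adjusted p = 0.0405). Chga (chromosome 12, 102554969 to 102565028, plus strand) encodes chromogranin A, a protein of secretory granules, and was at 1068 and 1007 in NC against 401 and 387 in KD (log2 fold change -1.40, SE 0.14, adjusted p = 0.041). Map1s (chromosome 8, 70905932 to 70917529, plus strand), which binds microtubules, had 834 and 794 in NC against 309 and 276 in KD (log2 fold change -1.47, SE 0.16, adjusted p = 0.0479). In these 5 genes every KD value was under every NC value, a trait shared by all that fell past 0.05. Id3 had the widest error, with an SE of 0.23 against 0.14 to 0.17 for the others.

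Cphx3 and Cphx1, homeobox genes of the preimplantation embryo in one cluster on chromosome 14, moved in opposite directions. Cphx3 was at 195 and 123 in NC and is listed at 0 in both KD libraries (log2 fold change -7.28, SE 0.67, adjusted p = 0.0405). Cphx1 is listed at 0 in both NC libraries and was at 97.8 and 63.2 in KD, with an adjusted p of 0.0561. These fitted changes depend on the pseudocount and are no measure of size. Of the 31-base words in Cphx3 transcripts 96.4% also occur in Cphx1 and 99.8% in Cphx2, and 80.4% of those in Cphx1 occur in Cphx3. Reads of these copies can hardly be told apart, so the split between them is uncertain, and the third copy, Cphx2, had 1.33 and 0 in NC against 0.898 and 0 in KD.

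The sequences before the start sites of 5 of the 12 genes are shown to let the CG dinucleotides there be seen, and they were picked after their CG content was known. They are the 250 bases upstream of the RefSeq start on GRCm38.p6, written 5′ to 3′ on the gene's own strand, with CG dinucleotides in capitals. Smyd1 (chr6:71262282-71262531, minus strand), Lgals9 (chr11:78984925-78985174, minus strand) and Gdpd1 (chr11:87074138-87074387, minus strand) rose, and Chga (chr12:102554691-102554940, plus strand) and Gng12 (chr6:66896147-66896396, plus strand) fell. The Smyd1 window lies inside the GENCODE span of the gene, which reaches 71322233, so the annotations place its start differently. All 250 bases of the Gng12 window and 131 of the Gdpd1 window lie in exons of non-coding RNA genes of the GENCODE annotation. In the Lgals9 window 22 bases lie in an exon of Lgals9.
Smyd1: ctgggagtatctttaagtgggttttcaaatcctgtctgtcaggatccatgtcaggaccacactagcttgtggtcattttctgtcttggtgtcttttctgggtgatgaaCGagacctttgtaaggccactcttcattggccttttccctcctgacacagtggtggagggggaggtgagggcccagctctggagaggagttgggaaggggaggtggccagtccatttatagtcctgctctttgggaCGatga
Lgals9: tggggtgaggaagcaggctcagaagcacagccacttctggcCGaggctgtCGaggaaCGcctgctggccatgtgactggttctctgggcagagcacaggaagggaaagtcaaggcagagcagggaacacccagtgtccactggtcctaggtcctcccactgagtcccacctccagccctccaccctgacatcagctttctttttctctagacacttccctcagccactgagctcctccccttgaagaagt
Gdpd1: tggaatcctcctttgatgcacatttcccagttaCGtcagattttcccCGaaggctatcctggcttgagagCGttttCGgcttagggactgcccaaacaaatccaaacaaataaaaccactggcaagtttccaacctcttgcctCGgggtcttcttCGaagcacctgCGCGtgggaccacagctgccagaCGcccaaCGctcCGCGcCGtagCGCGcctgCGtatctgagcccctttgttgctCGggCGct
Chga: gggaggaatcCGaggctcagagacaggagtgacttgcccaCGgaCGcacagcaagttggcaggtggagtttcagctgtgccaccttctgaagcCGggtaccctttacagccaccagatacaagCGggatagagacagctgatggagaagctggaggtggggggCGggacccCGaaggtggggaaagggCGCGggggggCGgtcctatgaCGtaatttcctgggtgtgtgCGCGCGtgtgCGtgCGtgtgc
Gng12: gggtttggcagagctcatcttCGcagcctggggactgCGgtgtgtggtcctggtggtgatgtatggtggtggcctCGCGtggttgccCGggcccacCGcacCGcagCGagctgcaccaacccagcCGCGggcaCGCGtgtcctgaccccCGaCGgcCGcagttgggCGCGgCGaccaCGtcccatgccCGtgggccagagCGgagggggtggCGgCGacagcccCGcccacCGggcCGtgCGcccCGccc

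Windows of 300 bases, from 250 before to 50 after the start, were found for 11 of the 12 genes. Those of Smyd1 and Cphx3 lie well inside the span that GENCODE gives the gene. The ratio of observed to expected CG dinucleotides was 0.156 for Smyd1, 0.16 for Lgals9, 0.435 for Bak1 and 0.489 for Oxct1, against 0.989 for Gdpd1, the fifth gene that rose. Among those that fell it was 0.936 for Smarca5, 0.897 for Map1s, 0.841 for Gng12, 0.764 for Chga, 0.704 for Id3 and 0.0744 for Cphx3. At a limit of 0.6, 1 of the 5 genes that rose and 5 of the 6 that fell were CG-rich, as were 71.5% of the windows found for tested protein-coding genes, and no test was made on so few. For Bak1, Oxct1 and Id3 the upstream bases lie wholly in exons of the GENCODE annotation. Exons of protein-coding genes hold 250 of them for Bak1 and Id3, 45 for Oxct1, 38 for Smarca5, 42 for Map1s and 48 for Cphx3. The upstream bases of these genes are not shown. Of protein-coding genes with an adjusted p under 0.1, a window was found for 77.4% of those that rose and 76.4% of those that fell. CG-rich windows made up 52.4% of the former and 67.9% of the latter. A window was found for 79.8% of all tested protein-coding genes, so each share leaves out part of its set, and no test was made.

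At a wider threshold, an adjusted p of 0.1, 221 genes passed, 1.62% of those tested, of which 108 rose (0.791%) and 113 fell (0.828%). Both directions were alike in size, with a median change of 1.14 among those that rose and 1.09 in size among those that fell, and 64 genes each changed by at least 2-fold. In all 221 both KD libraries lay on one side of both NC libraries, so leaving out 1 library could not turn a direction. Far fewer genes passed this threshold with any 1 library left out. Without adjustment, 2398 genes (17.6%) had a p under 0.05, 1206 of them higher (8.83%) and 1192 lower (8.73%). By the simpler rule of at least 2-fold with no overlap between the libraries of the groups, 637 genes (4.67%) were higher and 465 (3.41%) lower in KD. Of these 1102 genes, 8.07% of those tested, 615 had a mean level from 10 to 50 and 334 one from 50 to 200. Lower-level genes also had the wider errors, with a median SE of 0.63 from 10 to 50 and 0.089 from 5000 on. With NC replicate 1 left out, 699 genes met that rule on the lower side. Rose and fell are used below for genes past 0.1, with the adjusted p given, and levels alone for the rest.

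**Figure D2:**
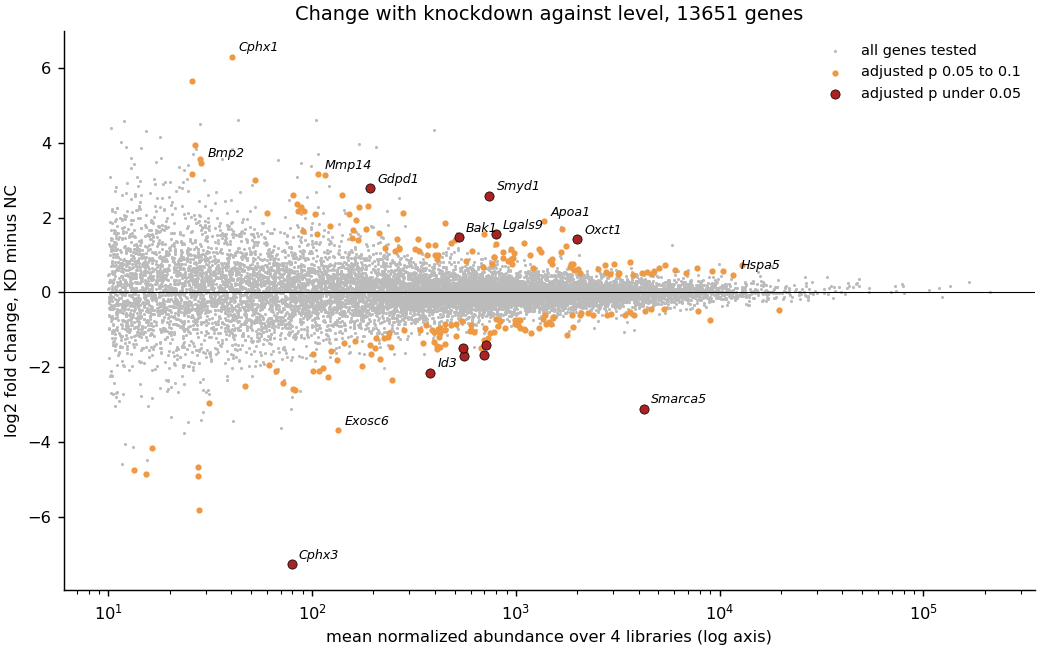
Log2 fold change, KD minus NC, of 13651 genes against the mean normalized abundance over the 4 libraries on a log axis. Grey points are all genes tested, orange points have an adjusted p from 0.05 to 0.1 and red points one under 0.05, and the 12 called genes spread from low to middling levels on both sides of 0 with Smarca5 alone at the lower right.

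Ligands and surface proteins were among the 20 largest rises. Efna5, an ephrin that signals between touching cells, was at 2.73 and 4.35 in NC against 60.4 and 45.8 in KD (log2 fold change 3.59, adjusted p = 0.085). Its relative Efnb1 also rose, with 881 and 827 in NC against 1970.5 and 1645 in KD (adjusted p = 0.0571), and the receptor Ephb2 fell, with 529 and 593 in NC against 291 and 292 in KD (adjusted p = 0.0908). The ligands Bmp2 and Bmp6 were both low in NC. Bmp2 had 5.43 and 2.43 in NC against 40.2 and 65.5 in KD (log2 change 3.48, adjusted p = 0.0988). Bmp6, whose gene overlaps the end of Txndc5 on the opposite strand, had 19.5 and 24.0 in NC against 114 and 83.9 in KD (log2 change 2.13, adjusted p = 0.0988). Apela, the peptide ligand of the apelin receptor, was at 32.0 and 30.7 in NC against 109.9 and 191 in KD (log2 change 2.17, adjusted p = 0.0944). The calcium channel gene Cacna1i, which encodes a T-type channel, had 4.56 and 4.07 in NC against 51.3 and 43.1 in KD (log2 change 3.18, adjusted p = 0.0959).

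Mmp14, Fbln5 and Cemip were also among the 20 largest rises. Mmp14, a membrane-bound protease that cleaves collagen, rose from 12.7 and 32.3 to 179.6 and 202 (log2 change 3.17, adjusted p = 0.0742). Fbln5, a protein of elastic fibres, was at 66.0 and 155 in NC against 411 and 488 in KD (log2 change 2.13, adjusted p = 0.0968), and Cemip, which helps to break down hyaluronan, at 34.6 and 42.6 in NC against 178 and 156 in KD (log2 change 2.09, adjusted p = 0.0742). Among the largest falls stood Lama3, the alpha chain of an epithelial laminin, with 396 and 418 in NC against 57.7 and 110.5 in KD (log2 change -2.33, adjusted p = 0.0707). Itgb4, the beta subunit of the integrin that binds this laminin, was also lower, with 390.2 and 362 in NC against 189.9 and 181 in KD (adjusted p = 0.0987), whereas Itgb1 was higher, with 3511 and 3608 in NC against 5144 and 5299.8 in KD (adjusted p = 0.0742). Of 8 laminin genes tested 4 were higher and 4 lower, and of 20 integrin genes 5 were higher and 15 lower. The basement membrane proteoglycan gene Hspg2 rose, from 614 and 993 to 2131 and 3017 (adjusted p = 0.0742). As for every gene past 0.1, the KD libraries of Mmp14, Fbln5, Cemip and Hspg2 lay clear of NC. Those of Vim and Foxl2 did too. The other 2 stromal markers tested were lower in KD on average, and the summed stromal markers overlapped between the groups. The part of stromal cells was not tested. Efnb1, Ephb2, Itgb4, Itgb1 and Hspg2 were named after their values were seen.

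**Figure D3:**
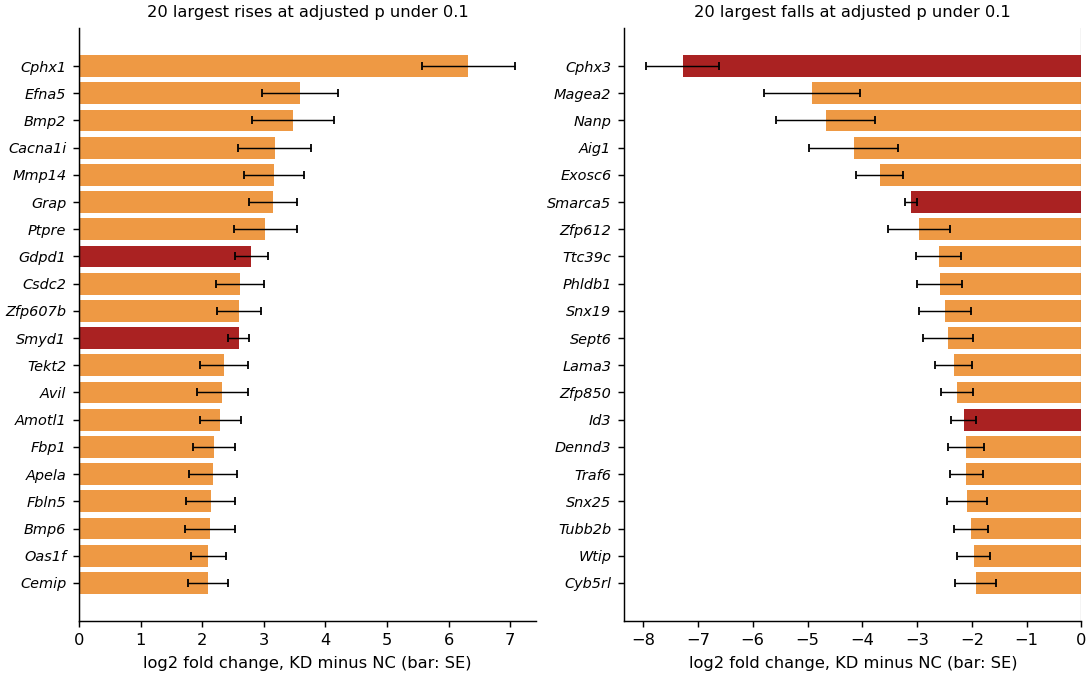
The 20 largest rises and 20 largest falls among genes with an adjusted p under 0.1, clones and pseudogenes left out. Bars are log2 fold changes, KD minus NC, with the SE of the limma fit, and red bars have an adjusted p under 0.05. The rises run from 6.32 for Cphx1 to 2.09 for Cemip, and the falls from -7.28 for Cphx3 to -1.93 for Cyb5rl.

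Grap, Ptpre, Amotl1, Avil and Tekt2 were other genes with large rises. Grap, an adaptor between receptors and Ras, was at 17.2 and 29.5 in NC against 225 and 191 in KD (log2 change 3.15, adjusted p = 0.0571), and Ptpre, a receptor-type tyrosine phosphatase, at 7.85 and 14.04 in NC against 76.8 and 112 in KD (log2 change 3.02, adjusted p = 0.085). Amotl1, an angiomotin that holds YAP at cell junctions, was at 29.2 and 29.5 in NC against 142 and 153 in KD (log2 change 2.29, adjusted p = 0.0707). Avil, an actin-binding protein of the gelsolin family, had 66.7 and 50.6 in NC against 437 and 199 in KD (adjusted p = 0.0908). Tekt2, a tektin of cilia and flagella, was at 21.8 and 32.0 in NC against 119 and 164 in KD (adjusted p = 0.0827). That the KD libraries of these genes lay clear of NC was part of the rule that picked them. Fbp1, the fructose-bisphosphatase of gluconeogenesis, was at 31.7 and 27.8 in NC against 154 and 126 in KD (log2 change 2.19, adjusted p = 0.0766). Oas1f, of the interferon-induced oligoadenylate synthetase family, had 60.3 and 53.1 in NC against 215 and 279.6 in KD (adjusted p = 0.0593). The gene Csdc2, of the cold-shock-domain family, had 52.4 and 27.7 in NC against 267 and 213 in KD (adjusted p = 0.0739), and the zinc finger gene Zfp607b was at 20.8 and 23.3 in NC against 139 and 138 in KD (adjusted p = 0.0597).

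Traf6, Snx19, Snx25 and Dennd3 were among the 20 largest falls. Traf6, a ubiquitin ligase downstream of interleukin-1 and Toll-like receptors, was at 172 and 179 in NC against 41.0 and 39.5 in KD (log2 change -2.10, adjusted p = 0.0707). Of genes outside the largest changes, the kinase gene Ikbkb fell, with 191 and 219 in NC against 47.0 and 71.2 in KD (adjusted p = 0.0908), as did the ubiquitin ligase gene Rnf31, with 1313 and 1032 in NC against 569 and 637 in KD (adjusted p = 0.085), and the Pellino gene Peli2, with 473 and 431 in NC against 218 and 235 in KD (adjusted p = 0.0944). Ikbkb, Rnf31 and Peli2 were picked after their values were seen. Of the sorting nexins, which guide endosomal cargo, Snx19 had 65.0 and 94.9 in NC against 11.4 and 15.1 in KD (adjusted p = 0.0987). Snx25 had 108 and 108 in NC against 23.5 and 25.5 in KD (adjusted p = 0.0887). Over the 28 sorting nexin genes tested, 15 were higher and 13 lower, and Snx7 rose (adjusted p = 0.0804). Dennd3, an activator of Rab GTPases, was at 146 and 183 in NC against 42.0 and 33.2 in KD (adjusted p = 0.0774).

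Cytoskeletal genes were found on both sides. The beta-tubulin Tubb2b fell, with 191 and 171 in NC against 39.3 and 49.5 in KD (log2 change -2.01, adjusted p = 0.0742), while Tubb6 and Tuba1a rose. The beta-tubulin Tubb6 had 831 and 739 in NC against 1393 and 1752 in KD (adjusted p = 0.0742), and the alpha-tubulin Tuba1a had 1061 and 1172 in NC against 1775 and 2031 in KD (adjusted p = 0.0805), with 77.0% of its 31-base words also in other genes. Of 12 alpha-, beta- and gamma-tubulin genes tested, 10 were higher in KD. The septin gene Sept6 was at 129.6 and 112 in NC against 14.8 and 30.9 in KD (log2 change -2.43, adjusted p = 0.0987). The formin gene Fmnl3, whose product elongates actin filaments, had 1717 and 1709.8 in NC against 916 and 844 in KD (log2 change -0.96, adjusted p = 0.0561). It was the 1 called of 15 genes of actin bundling and formins tested, of which 7 were higher and 8 lower (median -0.11). Rdx, which encodes radixin, a linker of actin to the membrane, fell from 2319 and 2718 to 1298 and 1331 (adjusted p = 0.0593). Its relative Ezr, abundant at the apical face of the embryo, had 3891 and 6304 in NC against 2127 and 2911 in KD and did not pass (adjusted p = 0.127). Tubb6, Tuba1a and Rdx were named after their values were seen.

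Further large falls were those of single genes of other kinds. Nanp, an enzyme of sialic acid synthesis, had 44.6 and 61.9 in NC against 3.41 and 0 in KD (adjusted p = 0.0998), and Aig1, a fatty acid ester hydrolase, 40.5 and 23.7 in NC against 0.958 and 0.651 in KD (adjusted p = 0.0998). Both were near 0 in KD and low in NC, and 52.1% of the 31-base words of Nanp also occur in other genes. Magea2, of the X-linked melanoma antigen family, was at 35.6 and 72.1 in NC against 0 and 1.93 in KD (log2 change -4.92, adjusted p = 0.0917). Its relatives Magea5 and Magea8, next to it on the X chromosome, were also lower without overlap. Magea5 was at 248 and 261 in NC against 61.2 and 109.6 in KD and Magea8 at 67.4 and 89.9 in NC against 18.4 and 19.9 in KD, and neither was called. Of the 31-base words of Magea2, Magea5 and Magea8, 66.2%, 62.0% and 57.1% also occur in other genes, with 33.9% to 45.7% shared between any pair of the 3, so their values are not independent. Phldb1, a protein anchored below the basal membrane, was at 176 and 104 in NC against 23.0 and 20.4 in KD (adjusted p = 0.0803), and Wtip, a LIM-domain protein of junctions, at 272 and 285 in NC against 55.8 and 89.0 in KD (adjusted p = 0.0746). Ttc39c had 118 and 167 in NC against 18.1 and 27.4 in KD (adjusted p = 0.0747) and lies next to Lama3 on chromosome 18. Cyb5rl was at 99.7 and 96.6 in NC against 24.5 and 25.6 in KD (adjusted p = 0.0996).

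The lineage lists leaned in different directions, with few members called. Of 29 primitive endoderm genes tested 23 were higher and 6 lower, with a median change of 0.28. Of them 3 rose, against 0.791% of all genes tested. Over all genes tested, 6862 were higher and 6789 lower, with a median of 0.0017. Apoa1, an apolipoprotein secreted by endoderm, rose from 447 and 715 to 1824 and 2486 (log2 change 1.91, adjusted p = 0.0593). Serpinh1, the collagen chaperone, was at 807 and 1315 in NC against 2147 and 2753 in KD (log2 change 1.24, adjusted p = 0.0996), and Amn, part of the uptake receptor of visceral endoderm, at 45.9 and 94.8 in NC against 278 and 239 in KD (log2 change 1.95, adjusted p = 0.09999). The lineage factors were not called. Gata4 had 190.0 and 380.1 in NC against 457 and 822 in KD, above NC in both KD libraries. Gata6, given above, was lower on average, with groups that overlapped. Sox17 had 704 and 1353 in NC against 892 and 1915 in KD, and the receptor Pdgfra had 2649 and 2472 in NC against 2522 and 3078 in KD, both with overlapping groups. Both KD libraries were above both NC libraries for 14 of the 29 genes and below for 1, against 24.6% above and 24.9% below among all genes. P4ha1, a collagen prolyl hydroxylase of the same list, went the other way at 1407 and 1282 in NC against 908 and 782 in KD (adjusted p = 0.101).

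Trophectoderm genes were higher in 22 of 28 cases, with a median of 0.23, and none was called. The factor Hand1 had 322 and 183 in NC against 1012 and 529 in KD (log2 change 1.59, adjusted p = 0.124), Gata3 8789.9 and 8024 in NC against 10401 and 10674 in KD (log2 change 0.33, adjusted p = 0.141) and Gata2 813 and 1388 in NC against 1579 and 2776 in KD (adjusted p = 0.201). Of the master regulators, Cdx2 was at 10117 and 9653 in NC against 11024 and 11721 in KD (log2 change 0.20, adjusted p = 0.265) and Eomes at 1364 and 2148 in NC against 1311 and 3609.6 in KD, the latter with adjusted p = 0.731. The keratins of the outer epithelium, Krt8 and Krt18, changed by 0.25 and 0.29 without overlap between the groups, at adjusted p = 0.218 and 0.196. Among 29 genes of junctions, polarity and cavity fluid 16 were higher and 13 lower (median 0.049), and none was called. The sodium pump subunit Atp1b1 had 3277 and 2933 in NC against 3909.7 and 4694 in KD and the claudin Cldn6 757 and 645 in NC against 939 and 861 in KD. Cldn3, a claudin outside the list, rose from 263 and 286 to 491 and 624 (adjusted p = 0.0987), and was named after its values were seen.

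Epiblast and pluripotency genes were lower in 18 of 26 cases, with a median of -0.24. The single call went the other way. L1td1, an RNA-binding protein of pluripotent cells, rose from 4078 and 3649 to 5952 and 5474 (log2 change 0.57, adjusted p = 0.0887). Pou5f1, given above, had a log2 change of -0.12. Nanog was at 5783 and 6782 in NC against 5943 and 6542 in KD (log2 change -0.0063), with overlapping groups. Sox2 had 1636 and 2215 in NC against 1266 and 1456 in KD (log2 change -0.49), and Klf4 1612 and 2583 in NC against 1504 and 1585 in KD (log2 change -0.40), both lower in both KD libraries. Adjusted p for these 4 factors ran from 0.213 for Sox2 to 0.985 for Nanog. Tdh, the threonine dehydrogenase of mouse pluripotent cells, was at 474 and 583 in NC against 234 and 119.8 in KD (log2 change -1.64, adjusted p = 0.101), and Utf1 at 2549.7 and 2358 in NC against 1532 and 1799 in KD (adjusted p = 0.11). The KD libraries lay below NC for 13 of these genes and above for 4, against 24.9% below and 24.6% above among all genes tested. In pooled whole embryos fewer cells of a lineage and less RNA per cell cannot be told apart.

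**Figure D4:**
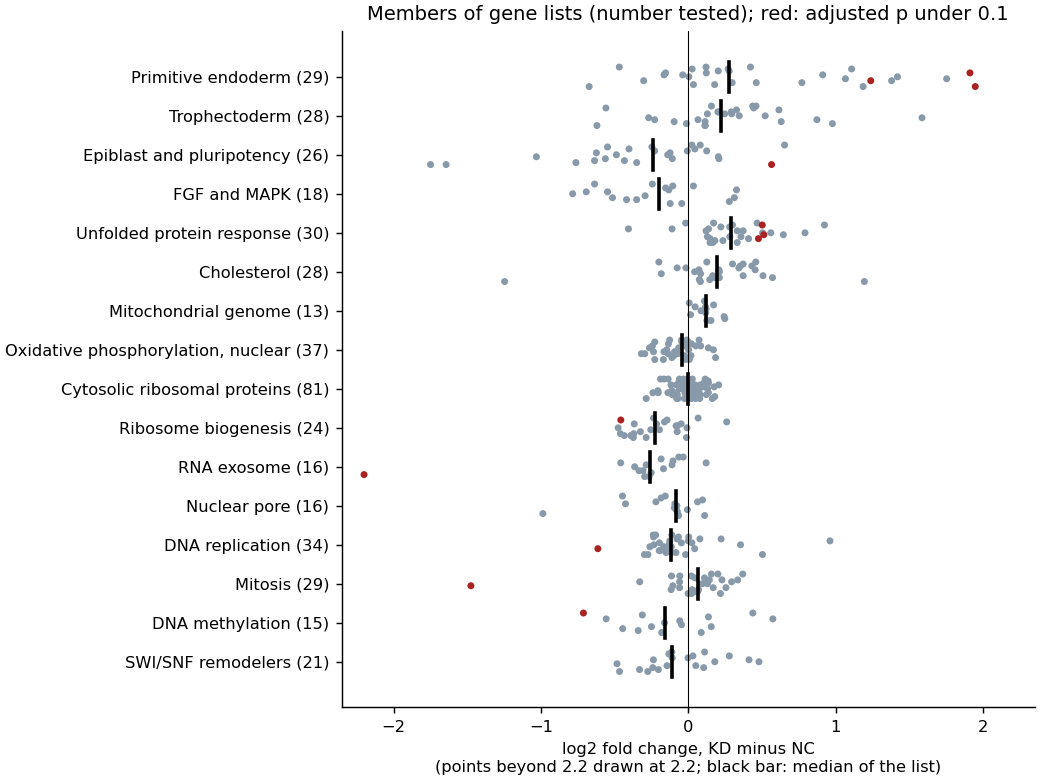
Log2 fold changes, KD minus NC, of the tested members of 16 gene lists, with the number tested in brackets. Each point is a gene, red points have an adjusted p under 0.1, and black bars are list medians. The bars of primitive endoderm, trophectoderm and the unfolded protein response lie right of 0, those of epiblast, ribosome biogenesis and the RNA exosome left of it, and that of ribosomal proteins at 0.

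Signalling lists held few called members. In the BMP list, from ligands through receptors and Smads to targets, Bmp2 rose and Id3 fell, and 9 were higher and 7 lower of 16 tested (median 0.079). Bmp4 had 39.8 and 256 in NC against 13.97 and 61.1 in KD, with overlapping groups, and Bmp7 was at 4.07 and 3.24 in NC against 32.4 and 17.7 in KD (adjusted p = 0.173). The receptor Bmpr1a had 1779 and 1835 in NC against 1426 and 1824 in KD and Smad1 70.8 and 119 in NC against 99.1 and 114 in KD, with overlapping groups. Id2, a relative of Id3 that marks early trophectoderm, was at 2370.5 and 2524 in NC against 1946 and 3607 in KD (adjusted p = 0.856), and Id1 did not reach a mean of 10. In the Nodal and activin list Fstl3, a secreted antagonist of activin, rose from 700.4 and 561 to 1685 and 1456 (log2 change 1.32, adjusted p = 0.0561). It was the 1 call among 11 genes (median -0.058), and the Nodal co-receptor Tdgf1 had 1911 and 2959.9 in NC against 867 and 1562 in KD (adjusted p = 0.173).

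Among 17 Wnt and Groucho genes (median -0.030), Aes fell and the secreted Wnt antagonist Sfrp1 rose, from 663 and 758 to 1241 and 1178 (log2 change 0.77, adjusted p = 0.085). The full-length Groucho gene Tle3 was higher at 2686 and 2144 in NC against 3609.9 and 3360.0 in KD and did not pass (adjusted p = 0.125). Amotl1 was the 1 call among 17 Hippo genes (median -0.093). The kinase Lats2 had 860.0 and 818 in NC against 1220.3 and 1238 in KD (adjusted p = 0.11) and the effector Yap1 5284 and 5145 in NC against 5423 and 5496 in KD (adjusted p = 0.718). In the FGF and MAPK list 4 were higher and 14 lower of 18, with a median of -0.20 and none called. Its ligand Fgf4 had 297 and 281 in NC against 173 and 225 in KD, and the receptor Fgfr1 3093 and 3534 in NC against 2608 and 2579.8 in KD. The phosphatase Ptpn11 had 2919 and 3025 in NC against 2253 and 1922 in KD, and the target Etv5 1616 and 1615 in NC against 909 and 1188 in KD. For each of these 4 genes both KD libraries lay below NC, as for 9 of the 18 in the list and 24.9% of all genes tested. The feedback gene Dusp6 and the receptor Fgfr2 had overlapping groups. Of 16 G protein subunits (median 0.014, below 0 with columns rescaled to equal sums), Gng12 fell and the beta subunit Gnb2 rose, from 2508 and 2311 to 3449 and 3336 (log2 change 0.49, adjusted p = 0.0998).

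Genes of the unfolded protein response, which restores folding in the endoplasmic reticulum, were higher in 27 of 30 cases, with a median of 0.29. Of them 3 rose, against 0.791% of all genes tested. Hspa5, the lumenal chaperone BiP, was at 9165 and 10340.5 in NC against 13952 and 13147 in KD (log2 change 0.48, adjusted p = 0.0987). Pdia6, a disulfide isomerase, was at 5579 and 5734 in NC against 8387 and 7764 in KD (log2 change 0.51, adjusted p = 0.0812), and Hyou1, a partner of BiP, at 2588 and 2652 in NC against 3884 and 3545 in KD (log2 change 0.50, adjusted p = 0.0988). Both KD libraries were above both NC libraries for 23 of the 30 genes, against 24.6% of all genes tested. Among 19 chaperones and factors of degradation 18 were higher (median 0.33), and among 11 sensors and transcription factors 9 were (median 0.17). The transcription factor Xbp1 had 1467 and 1324 in NC against 1999 and 2113 in KD (adjusted p = 0.101) and Ddit3, which encodes CHOP, 229 and 275 in NC against 394 and 479.7 in KD (adjusted p = 0.142). The sensor kinase Eif2ak3 went the other way, at 785 and 692 in NC against 494 and 626 in KD (adjusted p = 0.288). Txndc5, a further disulfide isomerase outside the list, fell from 1452 and 1307 to 748 and 684 (adjusted p = 0.0593). Its gene overlaps that of Bmp6 on the opposite strand, and strand was not stated for the counting. In the heat shock list, which covers cytosolic chaperones, 9 were higher and 13 lower of 22 (median -0.074) and Hsph1 fell, with 10746 and 11732 in NC against 6467 and 7009 in KD (log2 change -0.74, adjusted p = 0.0561).

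RNA decay and ribosome assembly genes were mostly lower. In the RNA exosome, the complex that trims and degrades RNA from its 3′ end, 15 of 16 genes were lower, with a median of -0.26. The KD libraries lay below NC for 11 of them, against 24.9% of all genes tested. All 9 core subunits were lower, among them Exosc2 with 1072 and 1065 in NC against 898 and 855 in KD and Exosc5 with 815 and 706 in NC against 610.0 and 569.6 in KD, neither called (adjusted p = 0.285 and 0.275). Exosc6 fell from 196 and 302 to 23.7 and 13.6 (log2 change -3.69, adjusted p = 0.0561), but all of its 31-base words also occur in transcripts of Aars, the alanyl-tRNA synthetase gene. Aars had 7473 and 9382 in NC against 7664 and 7274 in KD, so the split of reads between the 2 is uncertain. The cofactor Mphosph6 was the 1 member on the higher side, with 688 and 681 in NC against 716 and 773 in KD.

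Of 24 ribosome biogenesis genes 22 were lower (median -0.23), 17 of them without overlap, against 24.9% of all genes tested. Ncl, which encodes the nucleolar protein nucleolin, fell from 22455 and 22931 to 16634 and 16415 (log2 change -0.46, adjusted p = 0.0746). The helicase Ddx21 had 4406 and 4494 in NC against 3522 and 3584 in KD (adjusted p = 0.144), whereas Ubtf, the RNA polymerase I factor, was higher at 8176 and 8617 in NC against 9943 and 10175 in KD (adjusted p = 0.176). Some other genes of ribosome assembly past 0.1, outside the list, were picked from those that fell after their values were seen. Urb1 had 711 and 906 in NC against 396 and 382 in KD (adjusted p = 0.0811). Ftsj3 had 4202 and 4361 in NC against 3034 and 2971 in KD (adjusted p = 0.085). Tsr2 had 1084 and 1036 in NC against 606 and 536 in KD (adjusted p = 0.0742). The 81 ribosomal protein genes did not share this lean, with 41 higher, 40 lower, a median of 0.00063, whose sign turned under other scalings, and none called. Among 16 nuclear pore genes 3 were higher and 13 lower (median -0.086), none called.

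**Figure D5:**
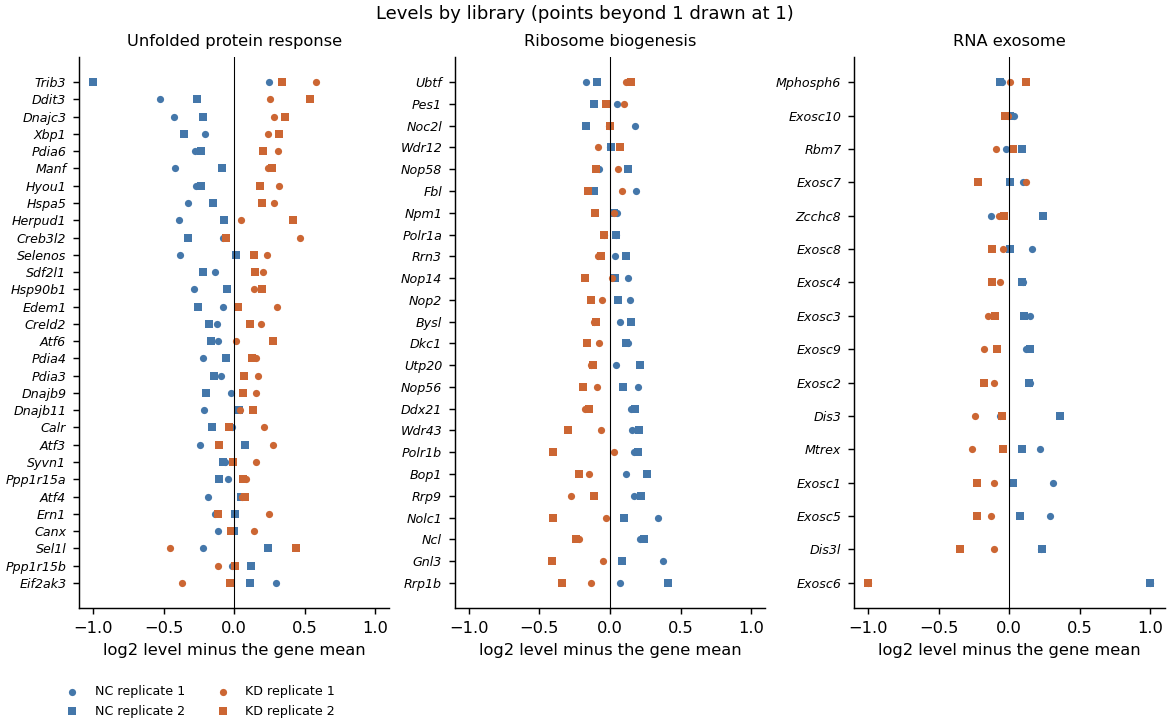
Levels by library of the unfolded protein response, ribosome biogenesis and RNA exosome lists, each gene as log2(level + 1) minus its mean over the 4 libraries. Blue is NC, orange is KD, circles are replicate 1 and squares replicate 2. KD points lie right of NC for 23 of 30 unfolded protein response genes, and left of NC for 17 of 24 ribosome biogenesis and 11 of 16 exosome genes. Among all genes tested KD lay above NC for 24.6% and below for 24.9%.

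No other chromatin remodeller gene passed. Of 21 SWI/SNF genes 8 were higher and 13 lower (median -0.11), and of 23 genes of NuRD, CHD, INO80 and ATRX 9 were higher and 14 lower (median -0.088). The ATPase Smarca2 had 799 and 801 in NC against 579.7 and 578 in KD (adjusted p = 0.164), and Atrx, which deposits histone variant H3.3, 3027 and 3615 in NC against 2608 and 2251 in KD (adjusted p = 0.165). CTCF and cohesin genes numbered 13, of which 8 were higher and 5 lower (median 0.048), and none was called, with Ctcf itself at 2758 and 3128 in NC against 2925 and 2738 in KD. In the Polycomb and heterochromatin list 8 were higher and 13 lower of 21 (median -0.074). Cbx2, a Polycomb reader, was at 293 and 284 in NC against 137 and 135 in KD and just missed 0.1 (log2 change -1.08, adjusted p = 0.101), and the methyltransferase Ezh2 had 2361 and 3074 in NC against 1972 and 2046 in KD. Nsd2, an H3 lysine 36 methyltransferase, and Phf2, a histone demethylase, both outside the lists, both fell. Nsd2 went from 704 and 899 to 395 and 400.1 (adjusted p = 0.085) and Phf2 from 302 and 353 to 133 and 151 (adjusted p = 0.0944), and they were named after their values were seen.

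Among 15 DNA methylation genes 5 were higher and 10 lower (median -0.16). Zfp57, which protects imprints through methylated CG sites, fell from 1577 and 1782 to 965 and 1085 (log2 change -0.71, adjusted p = 0.0917). Uhrf1, which guides the maintenance enzyme, was at 6563 and 6319 in NC against 4819 and 3976 in KD (adjusted p = 0.101), and the maintenance enzyme Dnmt1 itself at 3258 and 3227 in NC against 3001 and 2727 in KD (adjusted p = 0.389). The de novo enzyme Dnmt3a was higher, at 2807 and 2374 in NC against 4125 and 3582 in KD (adjusted p = 0.11). Of 15 imprinted genes 11 were higher and 4 lower (median 0.22), and none passed. Plagl1 was at 52.5 and 27.4 in NC against 118 and 145 in KD (adjusted p = 0.124). Histone chaperones and variants (19 genes, median -0.013) and replication-dependent histones (12 genes, median 0.41) held no call, and the latter are poorly captured by selection of polyadenylated RNA.

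Zinc finger genes with Zfp symbols were counted as a family only after the values were seen. Of 354 tested, 225 were lower and 129 higher (median -0.11). Past 0.1, 10 fell and 2 rose, against 0.828% and 0.791% of all genes tested. Zfp850 was at 184 and 213 in NC against 40.1 and 40.3 in KD (log2 change -2.27, adjusted p = 0.0593) and Zfp612 at 47.5 and 64.5 in NC against 4.98 and 7.69 in KD (log2 change -2.97, adjusted p = 0.0988). Zfp979, Zfp980, Zfp981, Zfp990 and Zfp992, all in a cluster on chromosome 4, fell together. The largest change of the 5 was that of Zfp979, at 878 and 807 in NC against 341 and 227 in KD (adjusted p = 0.0635), and the smallest that of Zfp990, at 592 and 562 in NC against 318 and 319 in KD (adjusted p = 0.0958). Members of such clusters are alike in sequence, which can split reads between them.

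Energy metabolism lists held few called enzymes. In the list of ketone bodies and fatty acid oxidation, 11 were higher and 5 lower of 16 (median 0.072) and only Oxct1 passed. The thiolase Acaa2, outside the list and named after its values were seen, fell from 4163 and 4069 to 2835 and 2605 (adjusted p = 0.0747). In serine and one-carbon metabolism, Psat1, an enzyme of serine synthesis, rose from 3946 and 3849.9 to 6507 and 5891 (log2 change 0.67, adjusted p = 0.0593). The mitochondrial serine carrier Sfxn1 fell from 570.3 and 627 to 219 and 223 (log2 change -1.43, adjusted p = 0.0561), and Shmt2, the mitochondrial enzyme that splits serine, from 1195 and 1354 to 682 and 734 (log2 change -0.84, adjusted p = 0.0747). The whole list of 23 genes was even, with 11 higher and 12 lower (median -0.0043, above 0 under quantile normalization).

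Cholesterol genes were higher in 23 of 28 cases (median 0.19) with none called. The synthesis enzyme Fdps had 3732 and 3759 in NC against 4734 and 4969 in KD (adjusted p = 0.121), while the late enzyme Sc5d was at 145 and 198 in NC against 60.8 and 82.5 in KD (adjusted p = 0.142). All 13 protein-coding genes of the mitochondrial genome were higher, by a median of 0.12. For 8 of them the groups did not overlap, against 24.6% of all genes tested on the higher side. The nuclear genes of oxidative phosphorylation went the other way, 25 of 37 lower (median -0.046), and neither set held a call. In glycolysis 16 were higher and 10 lower of 26 (median 0.068), none called, with Gapdh at 14063 and 11073 in NC against 18360.5 and 18261 in KD (adjusted p = 0.11). In the glutathione and redox list 16 were higher and 5 lower of 21 (median 0.11). There Gpx3, a secreted glutathione peroxidase, rose from 172 and 217 to 631 and 785 (log2 change 1.86, adjusted p = 0.0561), and Gss, the last enzyme of glutathione synthesis, fell from 5254 and 5394 to 3976 and 3806 (log2 change -0.45, adjusted p = 0.0987).

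Of 34 DNA replication genes 25 were lower (median -0.12), 13 of them without overlap, against 24.9% of all genes tested. Mcm3, a subunit of the replicative helicase, fell from 3510.1 and 3281 to 2158 and 2279.5 (log2 change -0.61, adjusted p = 0.0766). Its partner Mcm4 had 3529.8 and 3696 in NC against 3122 and 3076 in KD (adjusted p = 0.272). Of 29 mitosis genes 20 were higher (median 0.064, but -0.0087 without KD replicate 2), 9 of them without overlap, against 24.6% of all genes tested. Map1s, which fell, was the 1 call. In the list of p53 targets and apoptosis 19 were higher and 16 lower of 35 (median 0.045) and Bak1 alone passed. The cell cycle inhibitor Cdkn1a had 1387 and 1709 in NC against 1647 and 1532 in KD (adjusted p = 0.897), and the p53 target Ccng1 3550.1 and 4416 in NC against 2434 and 2791 in KD (adjusted p = 0.116). The interferon list held 1 call, Ifitm2, at 309.8 and 336 in NC against 159.8 and 143 in KD (log2 change -1.09, adjusted p = 0.0998), among 11 tested (median 0.060, below 0 under quantile normalization). Of 10 oocyte and maternal genes tested, Ybx2, an RNA-binding protein of germ cells, rose from 1066 and 1054 to 2077 and 2481 (log2 change 1.10, adjusted p = 0.0561).

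The genes past 0.1 were spread over the genome. Genes that fell lay on every autosome and the X, and genes that rose on every autosome but 16 and on the X. On the X 1.61% of tested genes rose and 1.38% fell, and on chromosome 18 1.61% and 1.29%, against 0.791% and 0.828% of all genes. Neighbours among the tested genes were called together in 9 cases, 6 in the same direction and 3 in opposite ones. A neighbour here is the next tested gene at any distance, and the widest gap was 3504122 bases, between 3830417A13Rik and Gm1140. The share over all neighbouring pairs was not computed, so the count is no measure of clustering. Ifrd2 and Sema3b, next to each other on chromosome 9, both fell. Ifrd2 was at 1814 and 1783 in NC against 1051 and 961 in KD (adjusted p = 0.0593). Sema3b, a secreted semaphorin, was at 724 and 579 in NC against 262 and 235 in KD (adjusted p = 0.0593). Ddx19a and Ddx19b, neighbouring RNA helicase genes on chromosome 8, moved apart. Ddx19a fell from 1516 and 1711 to 787 and 725 (adjusted p = 0.0561). Ddx19b rose from 1412 and 1430.0 to 2226 and 2329 (adjusted p = 0.0742), and 32.0% of the 31-base words of Ddx19a also occur in Ddx19b. Fgd1 and Tsr2 on the X overlap on opposite strands and both fell. Fgd1, an activator of the GTPase Cdc42, had 599 and 535 in NC against 208 and 239 in KD (adjusted p = 0.0593). The genes of this paragraph were picked by position, after their values were seen.

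By the rule of 2-fold without overlap, runs of 3 or more neighbours on one side were seen at 9 places. The rule was met by 8.07% of all genes tested. How many runs that share would give was not computed, so the count is no measure of clustering. The kallikrein protease genes Klk5 to Klk8 on chromosome 7 were higher, Klk7 being called, at 281 and 415 in NC against 799 and 1283 in KD (adjusted p = 0.0908). Hoxd8, Hoxd9 and Hoxd11 on chromosome 2 were higher, and Hoxd9 was called, at 134 and 143 in NC against 283 and 352 in KD (adjusted p = 0.0996). Of 5 ferritin-like Fthl17 genes tested, Fthl17b, Fthl17c, Fthl17e and Fthl17f on the X were lower, with 83.8 and 71.9 in NC against 28.2 and 34.9 in KD for Fthl17f. The other, Fthl17a, was higher, at 61.2 and 107 in NC against 177 and 324 in KD, and none of the 5 was called. From 60.2% of the 31-base words of Fthl17f to 96.2% of those of Fthl17b also occur in other genes, so the split of reads between the 4 lower copies is uncertain. Sc5d lay in such a run on chromosome 9, with Sorl1 and Tbcel on the lower side. This rule was chosen after the values were seen.

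Of 217 called genes with transcripts in the annotation, 178 shared under 10% of their 31-base words with any other gene, and 18 shared at least 50%. The latter were Cphx1, Cphx3 and Exosc6, 7 clones or pseudogenes, and Zfp980, Zfp981, Zfp59, Tuba1a, Magea2, Khdc1a, Ifitm2 and Nanp, so the values of these genes are uncertain. Genes listed at 0 in both libraries of 1 group were few. There were 22 at 0 in NC with a mean of at least 10 in KD, 15 of them found in both KD libraries, and 17 at 0 in KD, 10 of them found in both NC libraries. Apart from Cphx1 and 3830417A13Rik, at 61.9 and 40.5 in KD, the former included Stra6, the retinol uptake receptor, at 7.97 and 29.6 in KD, named after its values were seen. Among the latter, Cphx3 was the 1 protein-coding gene with a mean of at least 50 in NC.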

How the data were processed

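Polyadenylated RNA of pooled blastocysts was sequenced in 2 NC and 2 KD libraries. The authors deposited a table of normalized abundance per gene, a linear signal scaled between libraries and not whole counts. Salmon 0.14.1, DESeq2 and the mm10 build are named in the submitters' processing notes, with no role or order. Depth was estimated from the step between low values at 13958541 to 23304895 reads per library. Whole reads could not be recovered in all libraries, so no count test was run.

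Genes with a mean of at least 10 over the 4 libraries were kept. KD was compared with NC on log2(value + 1) with limma 3.58.1 (R 4.3.3), with a mean-variance trend and Benjamini-Hochberg adjustment over all 13651 genes, at 0.05 and, more widely, at 0.1. A log2 fold change on this scale understates the change of low genes. The script was tested on simulated data. With 2 libraries a group no permutation test can go below p = 0.333, so none is given. The labels do not say that the pools came from separate collections, so p-values reflect only how much these 4 samples vary, and that variation may be technical.

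The members and the 46 gene lists were chosen with earlier results of these data known. Genes are named if they belong to the ISWI list, passed 0.05, were among the 20 largest rises or falls past 0.1 without overlap, were among the 4 members of a list with the smallest p or passed 0.1 in it, are lineage or sex markers, or were among the highest genes listed at 0 in 1 group. Clones and pseudogenes were left out of the largest changes. Symbols, positions and 31-base words come from GENCODE vM21 (98.9% of IDs had a symbol), and sequences from RefSeq, GRCm38.p6. Alternatives changed the pseudocount, filter, scaling, variance model, replicate number or libraries.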

Additional observations from a re-analysis of the deposited data

How the results depend on the processing

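Limits are set by 2 libraries a group and by level, since genes of low level have the widest errors. All 12 genes past 0.05 and all 221 past 0.1 kept their direction wherever they were tested under each alternative. Only a change of scaling could have turned it, since the KD and NC libraries of these genes did not overlap. The 12 passed again under every other pseudocount, filter, scaling and variance setting except limma without the mean-variance trend, where 0 rose and 0 fell at 0.05 and 0 rose and 1 fell at 0.1. Genes past 0.05 numbered 14 up and 13 down with no filter, and 14 up and 12 down with robust variance estimates. Leaving out each library in turn gave 0 to 2 rises and 1 to 1 falls at 0.05, and 0 to 19 rises and 1 to 3 falls at 0.1. With columns rescaled to equal sums 174 genes fell at 0.1. Non-overlapping changes of at least 2-fold numbered 402 higher with a pseudocount of 10, 1649 higher and 1046 lower with no filter, and 262 higher and 225 lower at a mean of at least 50. Without a library they numbered 785 to 842 higher and 596 to 699 lower. At a mean of at least 50, 2 genes were listed at 0 in NC and 3 in KD. Filters change the set of genes counted, and leaving out a library leaves fewer values that must not overlap. The cause of the remaining moves was not tested. The count test was not run.

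The labels do not say whether same-numbered libraries were collected together, and the main fit left the replicate number out. On the second principal component, an axis holding 29.7% of the variance between libraries, replicate 1 scored 37.1 in NC and 17.9 in KD. Replicate 2 scored -36.2 in NC and -18.8 in KD. Deviations of same-numbered libraries from their group means correlated at 0.146 across 13651 genes, from 2 pairs only. With the replicate number as a block, 633 genes rose and 575 fell at 0.05, and 1094 rose and 1052 fell at 0.1, the 221 genes among them.

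Of 37 list medians 23 kept their sign under every alternative. Quantile normalization turned those of ribosomal proteins (-0.024), serine metabolism (0.015) and interferon (-0.063), and equal sums those of ribosomal proteins (-0.017) and G proteins (-0.0037). Leaving out 1 library in turn gave medians on both sides of 0 for Polycomb (-0.10 to 0.0026), Hippo (-0.11 to 0.0017), BMP (-0.082 to 0.19), Wnt (-0.088 to 0.20), mitosis (-0.0087 to 0.17), histone chaperones (-0.085 to 0.020), ribosomal proteins (-0.017 to 0.035), serine metabolism (-0.084 to 0.15), glycolysis (-0.032 to 0.12), nuclear oxidative phosphorylation (-0.10 to 0.0032), actin and formins (-0.15 to 0.071) and interferon (-0.26 to 0.33), and medians above 0 each time for Nodal (0.0055 to 0.11), whose median over all 4 libraries was -0.058. Of the 171 genes named with values, 159 kept their direction. Among genes that passed no test, leaving out 1 library in turn gave log2 changes on both sides of 0 for Bmpr1a (-0.34 to 0.014), Cdkn1a (-0.11 to 0.19), Col1a1 (-2.10 to 0.58), Ctcf (-0.14 to 0.037), Eif2s3y (-0.34 to 0.41), Eomes (-0.38 to 1.08), Hba-a1 (-2.91 to 2.96), Id2 (-0.33 to 0.56), Nanog (-0.12 to 0.11), Pdgfra (-0.021 to 0.27), Smad1 (-0.16 to 0.58) and Sox17 (-0.13 to 0.97). Hba-a1 also turned with a pseudocount of 10 (-0.53) and under quantile normalization (-0.39).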
